A study of Saccharomyces cerevisiae with 8 samples.

Results

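Arginine (Arg) is encoded by 6 of the 61 sense codons, and the ribosome occupancies of these 6 codons were followed through 8 ribosome profiling libraries of budding yeast. The codons were taken from the genetic code and not from their values. They form a 4-codon box, CGN, whose members differ in the last base, and a 2-codon box made of AGA and AGG.

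The strain eEF3d (yCW35) lacks HEF3, and its YEF3 gene, which encodes the elongation factor eEF3, is driven by a GAL1 promoter that glucose turns off. The YEF3 product also carries a 3mAID degron tag, and the strain expresses the plant receptor osTIR1 from an adh1 promoter at the HO locus, so that eEF3 can be depleted by transcriptional shutoff and by degradation of the protein. The codon table holds no measure of eEF3 itself and cannot check the depletion. The paper reports that after a switch to glucose and addition of auxin, eEF3 was no longer detected by immunoblot. Its libraries were prepared after the same time of conditional growth. WT was BY4741, with its eEF3 genes unmodified. Both strains were grown overnight in galactose and raffinose (YPGR) and moved to glucose medium (YPD) before harvest by filtration. There were 2 libraries per strain with cycloheximide and tigecycline (CHX + TIG) in the lysis buffer and 2 per strain with cycloheximide and anisomycin (CHX + ANS). The strains also differ in their markers and in osTIR1, which the WT libraries do not control for.

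The ribosome-protected footprints (RPFs) of 21 nt from CHX + TIG come from ribosomes with an empty A site that wait for a tRNA (the pre-accommodation state). The 28 nt RPFs from CHX + ANS come from ribosomes that have formed the peptide bond and have not yet translocated. The occupancy, or pause score, relates the footprint density at an A-site codon to that of its whole coding sequence in that library, so that 1 is the average position. Of the WT libraries, replicate 1 of CHX + TIG and the CHX + ANS pair were made in an earlier study. For 28 nt RPFs the origin of the library and the strain therefore cannot be told apart, and in 21 nt RPFs a fit without WT replicate 1 compares new libraries alone.

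Arg codons are a textbook case of unequal decoding. In yeast, the tRNA that reads most of the CGN box has its first anticodon base changed from adenosine to inosine, which pairs with U, with C and, poorly, with A, so that CGA is read by a purine-purine wobble pair. CGG, AGA and AGG have tRNAs of their own, and the tRNA for AGA carries a modified uridine that can also reach AGG. During elongation, tRNA selection fills the empty A site and translocation empties it again. eEF3 is a fungal ATPase that acts with eEF2 in translocation and in the release of tRNA from the E site.

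The 4 tRNA-Arg anticodons of the R64 yeast genome are shown because each of the 6 codons belongs to 1 or more of them. Each line is the RefSeq gene sequence 5′ to 3′ on its own strand, with the anticodon in capitals, and these genes have no intron. In the label of the inosine tRNA, CGN stands for CGT, CGC and CGA, since CGG has a tRNA of its own.

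tRNA-Arg reading CGN with inosine, YNCD0013C, R64 chrIV:619969-620041, minus strand: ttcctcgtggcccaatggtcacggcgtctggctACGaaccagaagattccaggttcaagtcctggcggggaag
tRNA-Arg for CGG, TRR4 (YNCL0045W), R64 chrXII:818609-818680, plus strand: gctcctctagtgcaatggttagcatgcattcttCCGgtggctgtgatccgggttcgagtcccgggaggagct
tRNA-Arg for AGA, YNCB0015W, R64 chrII:405878-405949, plus strand: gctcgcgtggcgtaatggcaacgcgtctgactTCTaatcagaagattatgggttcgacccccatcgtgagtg
tRNA-Arg for AGG, HSX1 (YNCJ0025W), R64 chrX:538555-538626, plus strand: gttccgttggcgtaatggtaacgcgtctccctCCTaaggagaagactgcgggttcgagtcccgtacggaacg

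The gene numbers behind these anticodons are unequal. The AGA anticodon has 11 genes, all with the same sequence, and the inosine anticodon has 6 genes with 2 distinct sequences. The CGG anticodon and the AGG anticodon have 1 gene each. No gene with an anticodon that would pair with CGA by Watson-Crick pairs alone was found among the 273 nuclear tRNA genes whose anticodon could be read. The tRNA of AGA and that of AGG are 70.8% identical over their aligned length, the closest of the 6 pairs, and the tRNA of CGG is the most distant from that of AGA, at 47.2%.

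The codons are as unequal in use. Among the 2925212 codons of 6002 annotated nuclear coding sequences, AGA made up 21.1 per 1000 and AGG 9.48 per 1000, and together they were 68.7% of all Arg codons. CGT made up 6.29 per 1000. CGA made up 3.13, CGC 2.66 and CGG 1.85 per 1000, which places these 3 last, at ranks 59, 60 and 61 of the 61 codons. CGG was present in 46.9% of the coding sequences, against 96.4% for AGA.

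In ribosomes with an empty A site, the Arg codons with the highest occupancy were CGA and CGG in both strains, and both were lower in eEF3d. CGA had an occupancy of 2.19 and 3.71 in eEF3d replicates 1 and 2, and of 6.08 and 7.63 in WT replicates 1 and 2. CGG, the rarest codon of the genome, had 2.03 and 3.40 in eEF3d, and 8.53 and 5.90 in WT. At both codons the 2 eEF3d libraries lay below the 2 WT libraries, with eEF3d replicate 2 the closer to WT. The log2 change was -1.43 at CGG and -1.26 at CGA, with limma adjusted p-values of 7.7e-09 and 2.6e-07. These p-values use a standard error of 0.21, which limma gave to every codon of this class, whereas the 4 libraries alone gave standard errors of 0.46 at CGG and 0.41 at CGA. When the prior spread was allowed to follow the mean level, limma gave adjusted p-values of 0.021 at CGG and 0.044 at CGA, and from the standard errors of the codons themselves (no moderation) the adjusted p was 0.155 at both.

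CGC and AGG were lower as well. CGC, which the inosine tRNA reads by an I·C pair, had an occupancy of 1.04 in both eEF3d libraries and of 2.31 and 1.77 in WT. AGG had 1.28 and 1.22 in eEF3d, and 2.13 and 1.72 in WT. The groups did not overlap at either codon, and in eEF3d both codons were near the average position of 1. The log2 change was -0.96 at CGC and -0.61 at AGG, with limma adjusted p-values of 0.00011 and 0.0090.

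CGT and AGA, the most used codon of each box, did not fall by the test. CGT had an occupancy of 0.974 and 1.13 in eEF3d, and of 1.21 and 1.04 in WT, so the groups overlapped. Its log2 change of -0.10 had a 95% interval of -0.51 to 0.32 (limma adjusted p = 0.68). AGA was the Arg codon with the lowest mean occupancy in both strains, with 1.05 and 0.905 in eEF3d, and 0.749 and 0.673 in WT, and here both eEF3d libraries lay above both WT libraries. The log2 change at AGA was 0.46 (limma adjusted p = 0.047), and this call was lost when each library was centred on its median (log2 change 0.31, limma adjusted p = 0.16). It was also lost without any 1 of the 4 libraries, with log2 changes from 0.35 to 0.57 and limma adjusted p-values from 0.053 to 0.26.

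**Figure D1:**
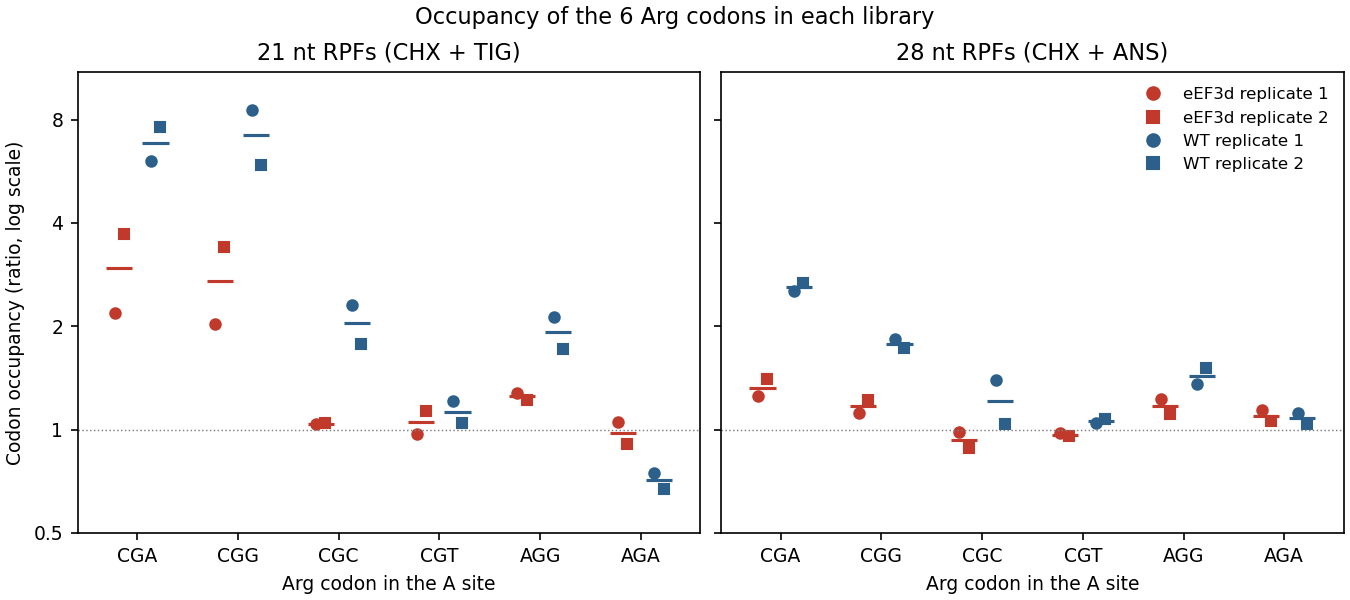
Occupancy of each Arg codon in each library on a log2-spaced axis, in 21 nt RPFs (left panel) and 28 nt RPFs (right panel), with eEF3d left of WT at each codon. Points are libraries, short lines are means of 2 libraries and the dotted line is an occupancy of 1. In 21 nt RPFs CGA and CGG reached 3.71 and 3.40 in eEF3d, against at least 6.08 and 5.90 in WT.

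In all, 4 Arg codons were lower and 1 was higher in eEF3d in 21 nt RPFs. Over all 61 codons the same test called 27.9% lower and 34.4% higher. At an unadjusted p under 0.05 the Arg codons were 5 as well, beside 63.9% of all codons. Both eEF3d libraries lay below both WT libraries at 4 Arg codons and above them at 1, where 34.4% and 47.5% of all codons were so placed. The median log2 change was -0.79 over the 6 Arg codons and 0.17 over all 61 codons. The median over all codons depends on how a library is scaled, 0.02 after centring on the library median and 0.45 after division by the library mean, and the Arg median then was -0.94 or -0.50. With centring the Arg calls were 4 lower and 0 higher, of 32 calls over all 61 codons, and with division by the mean 3 lower and 1 higher, of 36, since AGG no longer passed (limma adjusted p = 0.15). The unscaled fit had 38 calls over all codons.

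These calls depended on the estimate of the spread. Without moderation, 0 of the 61 codons passed after adjustment in 21 nt RPFs, and 17 had an unadjusted p under 0.05, 1 of them an Arg codon. The calls also changed when a WT library was left out. Without WT replicate 1, which leaves new libraries alone, 0 of the 61 codons passed the limma test after adjustment, and 20 codons, 3 of them Arg codons, had an unadjusted p under 0.05. Without WT replicate 2 these numbers were 0, 27 and 3. The change at CGG was -1.17 without WT replicate 1 and -1.70 without WT replicate 2 (limma adjusted p = 0.15 and 0.073). The changes at CGA were -1.42 and -1.09 in these 2 fits (limma adjusted p = 0.15 and 0.13). In both fits the spread comes from the 2 eEF3d libraries alone. Without either eEF3d replicate the spread comes from the 2 WT libraries alone. On the log2 scale, though not as occupancies, these lay closer together at CGA and CGG than the eEF3d libraries. In these fits the changes at CGG, CGA and CGC, and that at AGG, passed, with AGG at a limma adjusted p of 0.040 without eEF3d replicate 1 and 0.048 without eEF3d replicate 2.

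In pre-translocation ribosomes, the same end of the Arg list was lower in eEF3d. CGA had an occupancy in 28 nt RPFs of 1.25 and 1.40 in eEF3d, and of 2.54 and 2.67 in WT, where it ranked first of the 61 codons in both libraries. CGG had 1.12 and 1.22 in eEF3d, and 1.84 and 1.72 in WT. AGG had 1.23 and 1.11 in eEF3d, and 1.36 and 1.51 in WT. All 3 codons were separated between the strains. The log2 change was -0.98 ± 0.07 (standard error) at CGA, -0.61 ± 0.07 at CGG and -0.30 ± 0.08 at AGG, with limma adjusted p-values of 0.00023, 0.0012 and 0.024. AGG no longer passed without WT replicate 2 (log2 change -0.22, limma adjusted p = 0.067) or with division by the library mean (-0.16, limma adjusted p = 0.12). Without moderation the adjusted p was 0.046 at CGA, 0.060 at CGG and 0.17 at AGG. Strain and library origin coincide in all of these differences.

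At the other 3 codons the 28 nt occupancies were close to 1 in most libraries. CGC had 0.982 and 0.882 in eEF3d, and 1.39 and 1.04 in WT, and its change of -0.37 did not pass (limma adjusted p = 0.077). WT replicate 1 sets much of that difference. Without WT replicate 1 the change at CGC was -0.16, and without WT replicate 2 it was -0.58. It was -0.45 without eEF3d replicate 1 and -0.29 without eEF3d replicate 2. Each of these fits leaves 1 library in a strain, so only the sizes of the changes are given. Whether CGC passed differed between these fits. CGT had 0.974 and 0.955 in eEF3d, and 1.04 and 1.07 in WT, separated by less than at the codons above (log2 change -0.14, 95% interval -0.27 to -0.0040, limma adjusted p = 0.077). AGA had 1.14 and 1.06 in eEF3d, and 1.12 and 1.04 in WT, the only Arg codon whose groups overlapped in this class (log2 change 0.03, 95% interval -0.14 to 0.19).

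Thus 3 Arg codons were lower and 0 were higher by limma in 28 nt RPFs, beside 26.2% lower and 23% higher over all 61 codons. At an unadjusted p under 0.05 there were 5 Arg codons, beside 60.7% of all codons. Both eEF3d libraries lay below both WT libraries at 5 of the 6 Arg codons, which was so for 41% of all codons, and above them at 0, against 39.3% of all codons. The Arg median change was -0.33, against 0.03 over all codons. With each library centred on its median, 5 Arg codons were called lower, CGC and CGT among them, and the calls over all 61 codons were 34, against 30 without centring.

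**Figure D2:**
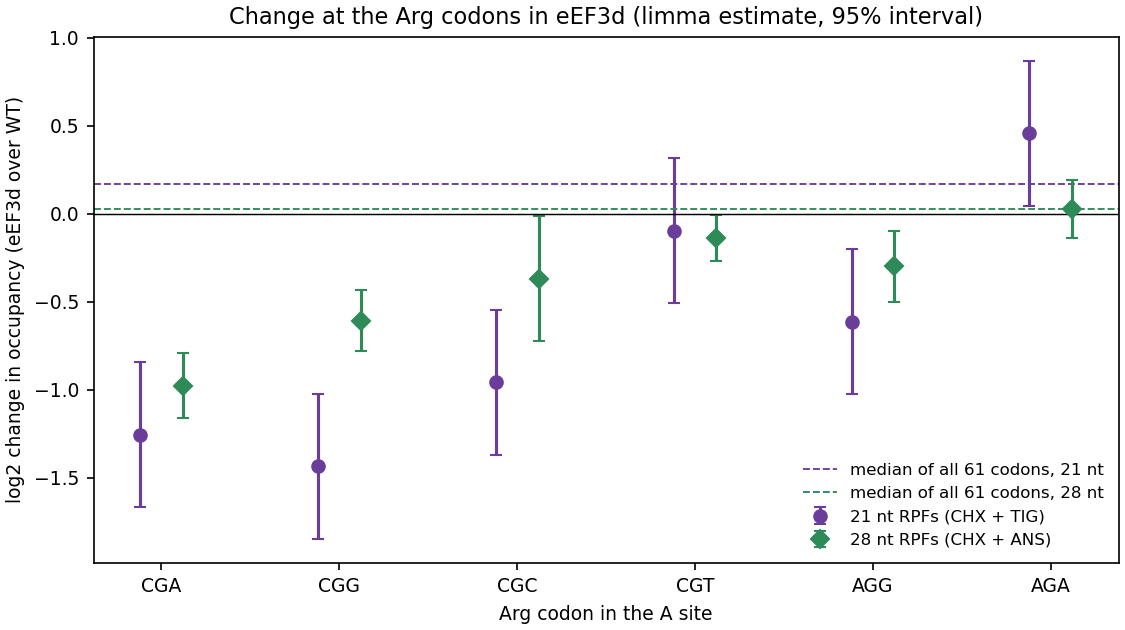
Change in occupancy in eEF3d over WT at each Arg codon (log2, limma estimate with its 95% interval, 2 libraries per strain) for 21 nt RPFs (circles) and 28 nt RPFs (diamonds). Dashed lines mark the median change of all 61 codons, 0.17 in 21 nt RPFs and 0.03 in 28 nt RPFs. CGA and CGG are the lowest pair of codons in both classes.

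The difference between the footprint classes was tested as the interaction of strain and class over all 8 libraries, 28 nt change minus 21 nt change. It passed at CGG (0.83, standard error 0.29, limma adjusted p = 0.027) and at CGC (0.59, standard error 0.23, limma adjusted p = 0.040), so that the change at these codons was more negative in 21 nt RPFs. These were 2 of 6 Arg codons, where the same term was called at 50.8% of all codons. At CGA the term was 0.28, with a 95% interval of -0.30 to 0.86 (limma adjusted p = 0.44), and at AGG it was 0.31 (limma adjusted p = 0.21), so that a smaller change in 28 nt RPFs was not shown at these codons. Without WT replicate 1 of CHX + TIG, the term was 0.56 at CGG and 0.40 at CGC (limma adjusted p = 0.27 and 0.23), and 0 Arg codons passed, with 1 at an unadjusted p under 0.05. It also missed the threshold at both codons without eEF3d replicate 1 of CHX + TIG and without WT replicate 2 of CHX + ANS. At CGG alone it missed without WT replicate 1 of CHX + ANS. At CGC alone it missed without eEF3d replicate 2 of CHX + TIG and without eEF3d replicate 1 of CHX + ANS. With division by the library mean it missed at CGC alone as well (0.44, limma adjusted p = 0.12).

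CGA and CGG headed the order of the 6 codons in both strains. For 21 nt RPFs of eEF3d the order of the means was CGA and CGG, then AGG, then CGT with CGC, then AGA, and the neighbours whose libraries overlapped were CGA with CGG, CGT with CGC, and CGC with AGA. In 21 nt RPFs of WT it was CGG and CGA, then CGC with AGG, then CGT, then AGA, with overlap within those 2 pairs alone. CGC thus stood with AGG in WT and with CGT in eEF3d. Its rank among all 61 codons was 26 in eEF3d and 9 in WT, while CGT ranked 24 in both strains. CGA and CGG held ranks 1 and 2 in eEF3d, and ranks 2 and 1 in WT.

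**Figure D3:**
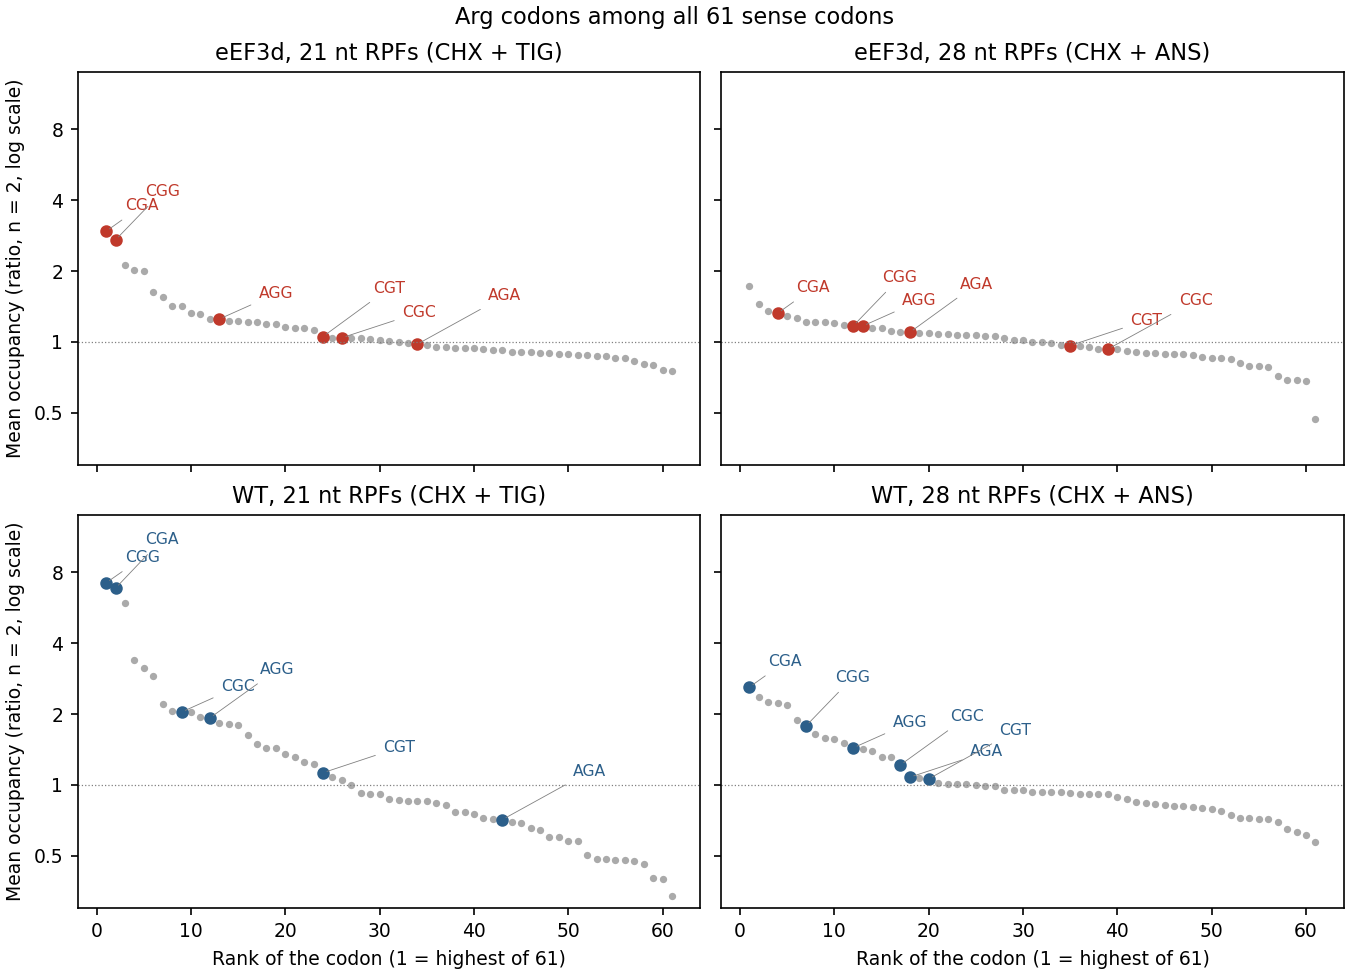
Mean occupancy (2 libraries, log2-spaced axis) of all 61 sense codons against rank, with the Arg codons coloured and named, for eEF3d (upper panels) and WT (lower panels) in 21 nt RPFs (left) and 28 nt RPFs (right). In 21 nt RPFs the Arg codons spanned ranks 1 to 34 in eEF3d and 1 to 43 in WT. They spanned ranks 4 to 39 in eEF3d and 1 to 20 in WT in 28 nt RPFs.

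The eEF3d order in 28 nt RPFs was CGA, then CGG with AGG and AGA, then CGT with CGC, and each neighbouring pair inside a group overlapped. The WT order began with CGA and CGG, followed by AGG and CGC and, last, by AGA and CGT. CGA was separated from CGG, and CGG from AGG, while the other neighbours overlapped. CGA stood at rank 4 of 61 in eEF3d and at rank 1 in WT, and CGG at rank 12 in eEF3d and 7 in WT.

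Ratios of 2 Arg codons within a library do not move with the scaling of that library. Those of CGA and CGG over AGA were lower in eEF3d as well. The ratio of CGA to AGA in 21 nt RPFs was 2.08 and 4.10 in eEF3d, and 8.12 and 11.3 in WT. The ratio of CGG to AGA was 1.93 and 3.75 in eEF3d, and 11.4 and 8.77 in WT. The log2 change was -1.89 for CGG to AGA and -1.71 for CGA to AGA, with limma adjusted p-values of 9.6e-10 and 1.4e-08. Both held without each library in turn, with changes between -2.37 and -1.41 for CGG to AGA and between -2.20 and -1.22 for CGA to AGA, and the highest limma adjusted p was 0.00013. Over AGG the log2 changes were smaller, -0.82 for CGG and -0.64 for CGA (limma adjusted p = 0.0017 and 0.018). Without each library in turn they lay between -1.23 and -0.42 for CGG and between -1.06 and -0.23 for CGA. The CGA to CGC ratio did not pass, and its libraries overlapped (log2 change -0.30, limma adjusted p = 0.27). Without moderation 0 of the 15 Arg pairs passed in either class, where 1 of all 87 pairs passed in 21 nt RPFs and 0 in 28 nt RPFs.

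The 2-codon box showed the same narrowing between its own members. The AGG to AGA ratio in 21 nt RPFs was 1.22 and 1.35 in eEF3d, and 2.84 and 2.55 in WT. AGG thus stood above AGA in all 4 libraries, and the log2 ratio fell by 1.07 in eEF3d (limma adjusted p = 3.3e-05, at most 0.011 without any 1 library). Among 28 nt RPFs this ratio was 1.08 and 1.05 in eEF3d, and 1.22 and 1.46 in WT (log2 change -0.33, limma adjusted p = 0.021), and the call was lost without WT replicate 2 (0.24) and without either eEF3d replicate (0.087 without replicate 1 and 0.12 without replicate 2).

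Inside the 4-codon box, CGT, its most used codon, was taken as the common partner. The CGG to CGT ratio in 21 nt RPFs was 2.08 and 2.99 in eEF3d, and 7.06 and 5.66 in WT (log2 change -1.34, limma adjusted p = 7.3e-07). The CGA to CGT ratio was 2.25 and 3.27 in eEF3d, and 5.03 and 7.31 in WT (log2 change -1.16, limma adjusted p = 1.8e-05). CGA and CGT are read by the same tRNA, whereas CGG and CGT are read by different tRNAs. The part of the wobble base in these ratios was not tested. In 28 nt RPFs the CGA to CGT ratio was 1.28 and 1.47 in eEF3d, and 2.43 and 2.48 in WT (log2 change -0.84, limma adjusted p = 9.8e-10). That p-value uses a standard error of 0.119, which limma gave to every pair of the 28 nt class. Without moderation the adjusted p was 0.165.

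CGG and CGA, the highest codons, were close to each other in 21 nt RPFs. Their ratio, CGG to CGA, was 0.926 and 0.915 in eEF3d, and 1.40 and 0.774 in WT, so the 2 WT libraries disagreed on which was higher (log2 change -0.18, 95% interval -0.64 to 0.28, limma adjusted p = 0.49). In 28 nt RPFs CGA was above CGG in every library, with ratios of 0.895 and 0.873 in eEF3d, and 0.724 and 0.646 in WT. The log2 ratio was 0.37 higher in eEF3d (limma adjusted p = 0.0085), a call that was lost without WT replicate 2 (0.078) and without eEF3d replicate 1 (0.087).

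**Figure D4:**
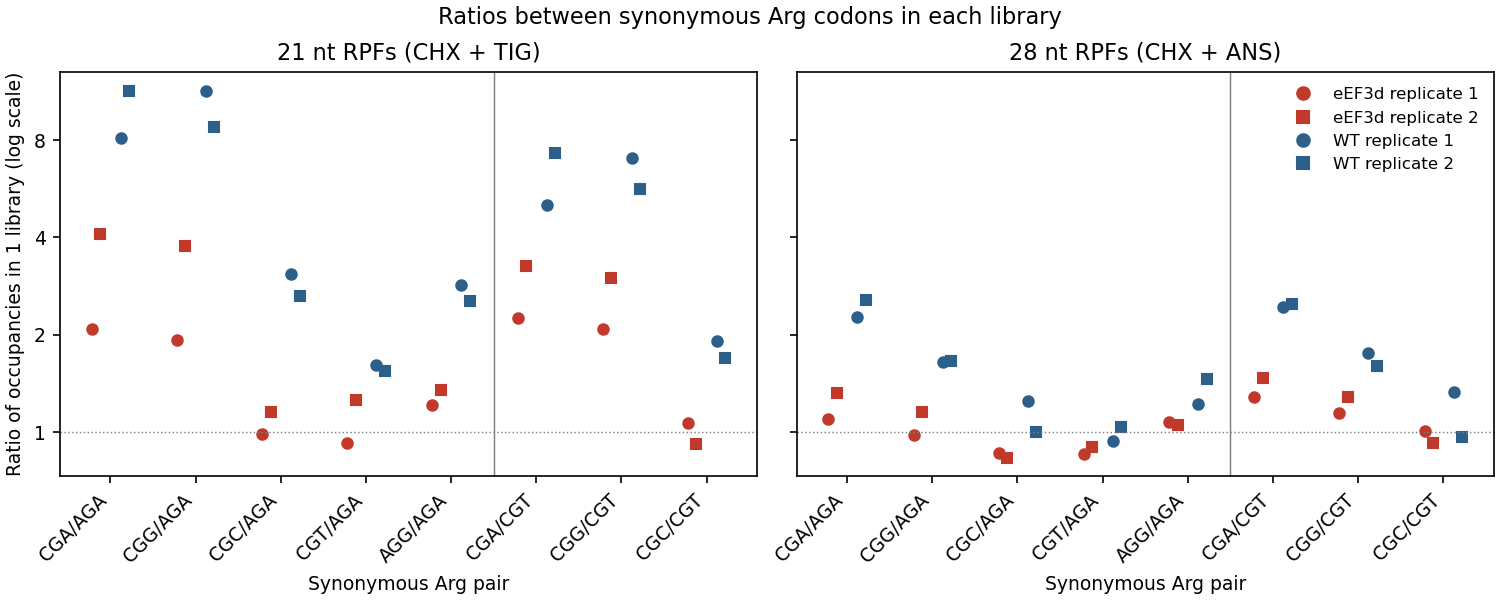
Ratio of the occupancies of 2 Arg codons in each library (log2-spaced axis), with eEF3d left of WT, in 21 nt RPFs (left panel) and 28 nt RPFs (right panel). Left of the vertical line each codon is set over AGA, and right of it over CGT. The CGG to AGA ratio in 21 nt RPFs was at most 3.75 in eEF3d and at least 8.77 in WT.

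Of the 15 pairs of Arg codons, 11 (73.3%) changed in 21 nt RPFs and 10 (66.7%) in 28 nt RPFs. The same test called 60.9% and 42.5% of all 87 synonymous pairs in these classes. The 15 pairs are built from 6 codons and are not independent of each other. The median size of the log2 change was 0.82 over the Arg pairs and 0.56 over all pairs in 21 nt RPFs, and 0.37 over the Arg pairs and 0.23 over all pairs in 28 nt RPFs. Without eEF3d replicate 1, 6 Arg pairs were called in 28 nt RPFs, of 19 calls over all 87 pairs, against 37 with all libraries.

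For the boxes as a whole, the mean log2 occupancy of the CGN codons minus that of AGA and AGG was 0.33 and 0.90 in eEF3d replicates 1 and 2, and 1.46 and 1.49 in WT, in 21 nt RPFs. The difference in 28 nt RPFs was -0.14 and 0.02 in eEF3d, and 0.39 and 0.26 in WT. The mean of the CGN box thus stood above that of the 2-codon box in every 21 nt library, and in 28 nt RPFs the 2 boxes lay close together in eEF3d. Not every CGN codon was above AGG in 21 nt RPFs. In eEF3d the mean occupancies of CGT and CGC were 1.05 and 1.04, below 1.25 at AGG. In WT that of CGT was 1.13, below 1.92 at AGG, while CGC had 2.04. The box difference changed by -0.86 in 21 nt RPFs and by -0.39 in 28 nt RPFs, and in both classes the exact two-sided permutation test over 2 against 2 libraries gave its smallest possible p, 0.333.

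The SD of log2 occupancy over the 6 Arg codons was 0.52 and 0.91 in eEF3d, and 1.34 and 1.38 in WT, in 21 nt RPFs. The SD in 28 nt RPFs was 0.15 and 0.24 in eEF3d, and 0.48 and 0.54 in WT. Every eEF3d library had a smaller spread than every WT library of its class (exact two-sided permutation p = 0.333, the smallest possible, in both classes). The SD over the other 55 codons had the same order, at 0.26 and 0.45 in eEF3d, and 0.92 and 0.87 in WT, in 21 nt RPFs, and at 0.33 and 0.30 in eEF3d, and 0.51 and 0.49 in WT, in 28 nt RPFs. The narrower spread in eEF3d was thus also present in the other codons. In 21 nt RPFs this SD differed by more between the 2 eEF3d libraries than between the WT libraries, both over Arg codons and over the other codons. Taken over all codons of this class, the replicates of the 2 strains disagreed by similar amounts. The root-mean-square replicate SD of log2 occupancy over all codons was 0.209 in eEF3d and 0.207 in WT. Single Arg codons departed from this in both directions. The log2 values at CGA were 1.13 and 1.89 in eEF3d, and 2.60 and 2.93 in WT. At CGC they were 0.05 and 0.06 in eEF3d, and 1.21 and 0.83 in WT.

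The means of Arg codons and of other codons were also set side by side. The mean of the 6 Arg codons in 21 nt RPFs was 1.43 and 1.90 in eEF3d, and 3.50 and 3.12 in WT, while the mean of the other 55 codons was 1.06 and 1.12 in eEF3d, and 1.19 and 1.19 in WT. Weighted by the use of each codon in the genome, the Arg mean was 1.21 and 1.31 in eEF3d, and 1.90 and 1.72 in WT. The weighted Arg mean in 28 nt RPFs was 1.13 and 1.08 in eEF3d, and 1.30 and 1.29 in WT. The weights take every coding sequence once and not by its mRNA level.

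With the same weights, CGA and CGG together accounted for 19.7% and 30.6% of the occupancy at Arg codons in eEF3d, and for 41.2% and 45.4% in WT, in 21 nt RPFs. Among 28 nt RPFs they accounted for 11.9% and 13.9% in eEF3d, and for 19.5% and 20.1% in WT. They are 11.2% of the Arg codons of the genome. The share in 28 nt RPFs of eEF3d was thus near that of codon number, and in 21 nt RPFs of WT it was highest.

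Set side by side in 1 strain, the 21 nt and 28 nt classes differ in their inhibitors, and each is scaled to itself. The mean occupancy of CGG in 21 nt RPFs was 2.32 times that in 28 nt RPFs in eEF3d and 4.05 times in WT. For CGA the ratio was 2.23 in eEF3d and 2.63 in WT. AGA went the other way, with 0.891 in eEF3d and 0.660 in WT. CGC had 1.12 in eEF3d and 1.68 in WT. CGT had 1.09 in eEF3d and 1.06 in WT, with overlap between the classes in both strains. AGG had 1.07 in eEF3d, with overlap between the classes, and 1.34 in WT.

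For the wobble base, the CGN box was compared with the other codon boxes that have a tRNA gene whose anticodon starts with A and none whose anticodon starts with G. There are 7 such boxes, those of Arg, Pro, Ala, Ser, Val, Ile and Thr, and in all of them the C-ending and T-ending codons share the inosine tRNA. In 21 nt RPFs the ratio of CGC to CGT was 1.07 and 0.921 in eEF3d, and 1.91 and 1.70 in WT (log2 change -0.86, limma adjusted p = 0.00057). The Pro box had ratios of 0.962 and 1.65 in eEF3d, and 1.98 and 2.22 in WT. In the other 5 boxes the ratio was between 0.969 and 1.59 in eEF3d, and between 0.995 and 1.46 in WT. CGC and the Pro codon CCC were therefore the C-ending codons that stood furthest above their T-ending partners in WT. The CGC to CGT ratio in 28 nt RPFs was 1.01 and 0.924 in eEF3d, and 1.33 and 0.966 in WT, with overlap (limma adjusted p = 0.10).

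The ratio of A-ending to T-ending codons in the same boxes was added after its values were seen and was not tested outside the Arg box. The Arg box was the 1 box of the 7 with 0 genes for an anticodon starting with T, so that CGA, unlike the A-ending codons of the other boxes, has no tRNA of its own. In the other 6 boxes the A to T ratio in 28 nt RPFs was between 1.10 and 1.47 in eEF3d, and between 0.869 and 1.55 in WT, beside CGA to CGT ratios of at most 1.47 in eEF3d and at least 2.43 in WT. The Arg box was thus above all others in WT and inside their range in eEF3d. In 21 nt RPFs the Ile box overlapped the Arg box in both strains. Its A to T ratios were 1.90 and 2.42 in eEF3d, and 5.40 and 4.84 in WT, beside CGA to CGT ratios of 2.25 and 3.27 in eEF3d, and 5.03 and 7.31 in WT.

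**Figure D5:**
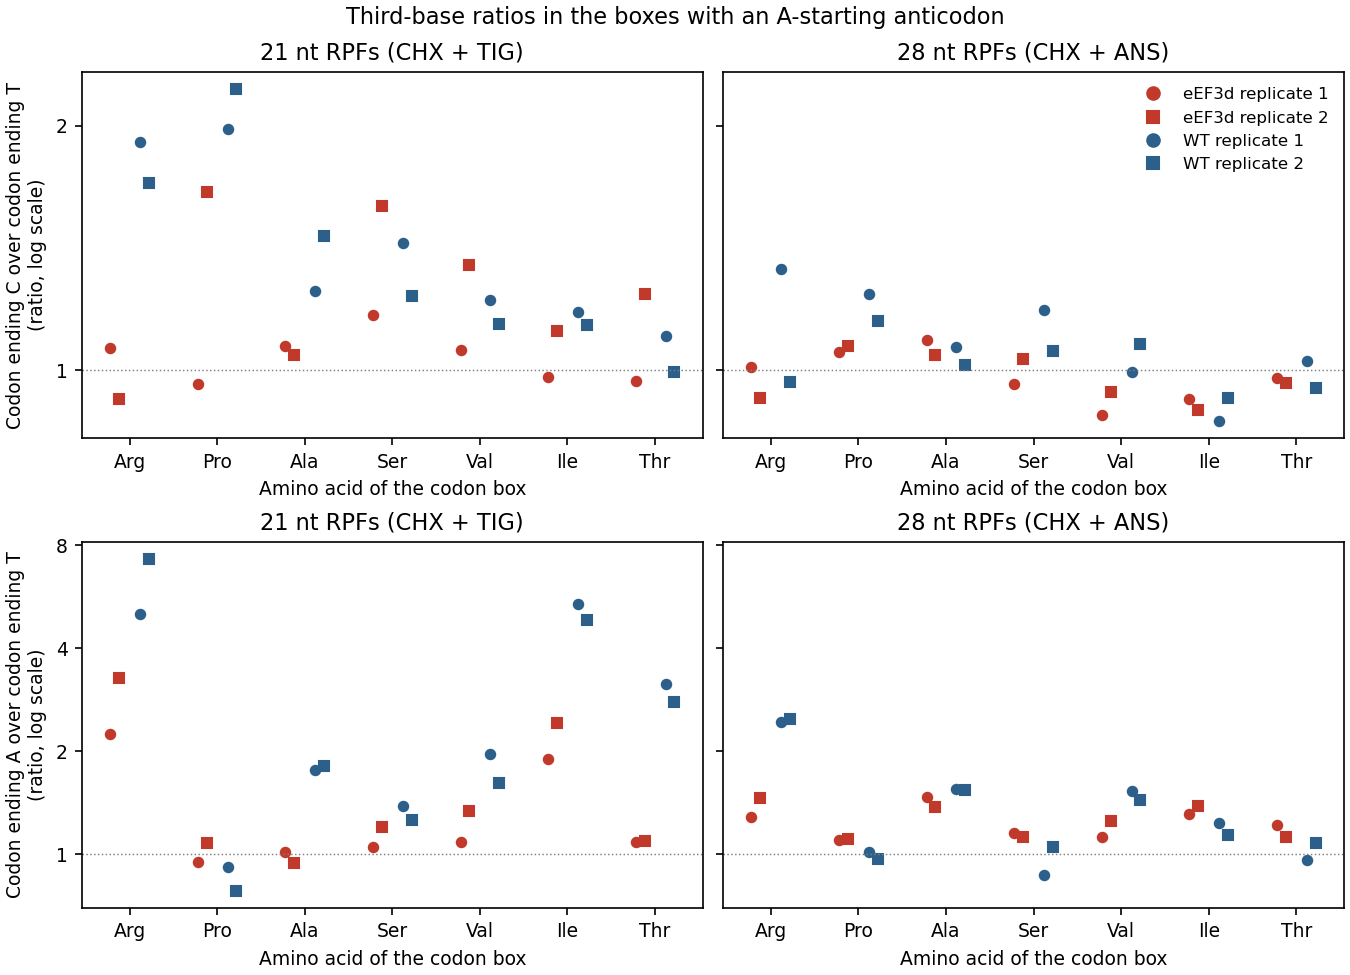
Ratio of the C-ending to the T-ending codon (upper panels) and of the A-ending to the T-ending codon (lower panels) in each library, for the 7 codon boxes with an A-starting and no G-starting anticodon, on log2-spaced axes with eEF3d left of WT. In 28 nt RPFs (lower right) the Arg box reached 1.47 in eEF3d and 2.48 in WT, where the highest other box had 1.47 in eEF3d and 1.55 in WT.

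The codons most like each Arg codon over the 8 libraries were found by the root-mean-square (RMS) difference of log2 occupancy. CGA was nearest to CGG, with a difference of 0.37, and the nearest codon of another amino acid was the Pro codon CCG for both, at 0.39 for CGA and 0.51 for CGG. The Trp codon TGG came next, at 0.94 for CGA and 0.76 for CGG. AGG lay closest to the Thr codon ACG (0.11) and the Val codon GTG (0.15). CGC lay closest to the Glu codon GAG (0.17) and to ACG (0.23). CGT lay closest to the Leu codon CTA (0.16) and the Ser codon AGC (0.19), and AGA to the Glu codon GAA (0.17) and the Lys codon AAG (0.18). AGG, CGC, CGT and AGA each had a codon of another amino acid nearer to them than any Arg codon, while CGG was nearer to CGA than to any codon outside Arg, and CGA likewise to CGG.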

How the data were processed

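Ribosome footprints of eEF3d (yCW35) and WT (BY4741) yeast came from 8 libraries, 2 per strain and inhibitor pair. Base calling with CASAVA 1.8, mapping with STAR and the R64 (sacCer3) genome are named in the submitters' processing notes. The authors trimmed reads, removed non-coding RNA, selected RPFs by length, 21 nt for CHX + TIG and 28 nt for CHX + ANS, and placed each at its A-site codon. The deposited values are ratios, 1 per codon and library. A ratio keeps no read numbers, so depth is unknown and no counting interval is given. With CHX + TIG the paper reports a strong drop of 21 nt RPFs in eEF3d against WT. Whether the 21 nt ratios of the 2 strains rest on unequal read numbers cannot be seen from them. The precision rests on 2 libraries per group, whose log2 values had a root-mean-square SD over the 61 codons of 0.209 (eEF3d) and 0.207 (WT) in 21 nt RPFs, and of 0.085 (eEF3d) and 0.078 (WT) in 28 nt RPFs.

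Log2 ratios were tested per class over all 61 codons with limma 3.58.1 in R 4.3.3, with a threshold of 0.05 after Benjamini-Hochberg adjustment. For the 21 nt class, limma gave all codons 1 common SD of 0.208, and for the 28 nt class it gave all synonymous pairs a common SD of 0.119. Ratios of synonymous codons (87 pairs) and the interaction of strain and class were tested likewise. Box differences and spreads were compared by exact permutation tests over libraries (Python 3.11, scipy 1.17.1). The steps were tested on simulated data. Replicate numbers are from the labels. Deviations of same-numbered libraries correlated at -0.166 in 21 nt RPFs and -0.033 in 28 nt RPFs, so the libraries were not taken as paired. The RefSeq annotation of R64, later than that of the authors, gave codon use and tRNA genes. An anticodon was read from the gene sequence by its stem of at least 4 pairs, and all 29 anticodons stated in the annotation were the same.

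The 6 codons and all lists were chosen with earlier results of these data known. All Arg codons are named, 1 gene per tRNA-Arg anticodon, and the 2 codons most like each Arg codon. Alternatives were the replicate block, other scalings, a pseudocount of 0.1, a mean-variance trend, class weights, no moderation, leaving out each library, and crossed replicate numbers, added after the data were seen. Tripeptide motifs and footprint sizes were not analysed here.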

Additional observations from a re-analysis of the deposited data

Results flagged for a closer look

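At 2 Arg codons the change in eEF3d differed between the footprint classes by the interaction term of limma. At CGG the 28 nt change minus the 21 nt change was 0.83 on the log2 scale, from -0.61 in 28 nt RPFs and -1.43 in 21 nt RPFs, with an adjusted p of 0.027. At CGC it was 0.59, from -0.37 in 28 nt RPFs and -0.96 in 21 nt RPFs, with an adjusted p of 0.040. Over 14 alternatives the term ranged from 0.46 to 1.20 at CGG and from 0.38 to 0.80 at CGC, and limma adjusted p-values ranged from 0.0034 to 0.27 and from 0.025 to 0.26. The call was lost in 6 of these alternatives at CGG and in 9 at CGC. The eEF3d libraries were new in both classes, whereas WT had 1 new library in 21 nt RPFs and 0 in 28 nt RPFs, and the part of library origin in these differences was not tested. With 2 libraries per group, no group was large enough to look for a single outlying library.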

How the results depend on the processing

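The directions at CGA and CGG, and those at CGC and AGG, were the same under every alternative of the codon changes in 21 nt and 28 nt RPFs, while calls depended on the estimate of the spread. Without moderation, 0 Arg codons were called in 21 nt RPFs (1 at an unadjusted p under 0.05), 1 in 28 nt RPFs, 0 pairs in either class (5 pairs at an unadjusted p under 0.05 in each) and 0 interaction terms (1 at an unadjusted p under 0.05). Over all 61 codons this gave 0 calls in 21 nt RPFs (main 38), 12 in 28 nt RPFs (main 30) and 13 interaction terms (main 31), and over all 87 pairs 1 in 21 nt RPFs (main 53) and 0 in 28 nt RPFs (main 37). Leaving out 1 library gave 0 to 4 called codons in 21 nt RPFs (main 5) and 3 to 4 in 28 nt RPFs (main 3), 8 to 12 pairs in 21 nt RPFs (main 11) and 6 to 10 in 28 nt RPFs (main 10), and 0 to 3 interaction terms (main 2). Over all codons the same fits gave 0 to 32 calls in 21 nt RPFs, 28 to 33 in 28 nt RPFs and 20 to 36 interaction terms, and over all pairs 37 to 51 in 21 nt RPFs and 19 to 38 in 28 nt RPFs. The box difference then lay between -1.15 and -0.57 in 21 nt RPFs and between -0.46 and -0.31 in 28 nt RPFs, and the change in spread between -0.84 and -0.45 and between -0.36 and -0.27. With each library centred on its median, 5 Arg codons were called in 28 nt RPFs, of 34 over all codons. Weights by footprint class left 1 interaction term, of 29. From occupancies as deposited, divided by the Arg mean, the box difference in 21 nt RPFs was -0.44 and the change in spread was -0.38 in 21 nt RPFs and -0.25 in 28 nt RPFs, on another scale than log2. The replicate block gave 4 codons in 21 nt RPFs, 2 in 28 nt RPFs, 10 pairs in each class and 0 interaction terms (2 at an unadjusted p under 0.05), where all codons gave 33, 19 and 23 calls, and all pairs 46 and 37. With it the call at AGG in 28 nt RPFs and that at AGA in 21 nt RPFs were lost (limma adjusted p = 0.15 and 0.075). Same-numbered libraries correlated at -0.166 in 21 nt RPFs. Crossed replicate numbers gave 5 codons and 5 pairs there, of 39 codons and 39 pairs in all. Some directions reversed. CGT in 21 nt RPFs was 0.19 with division by the mean and between -0.21 and 0.015 without 1 library, above 0 without eEF3d replicate 1 and without WT replicate 1. AGA in 28 nt RPFs was -0.060 when centred and between -0.025 and 0.079 without 1 library, below 0 without eEF3d replicate 1 and without WT replicate 2. The CGG to CGA ratio in 21 nt RPFs changed by -0.61 to 0.25 without 1 library, above 0 without WT replicate 1. The interaction at CGT was 0.025 when centred and between -0.15 and 0.070 without 1 library, above 0 without eEF3d replicate 2 or WT replicate 2 of CHX + TIG, and at CGA between -0.10 and 0.66, below 0 without eEF3d replicate 1 of CHX + TIG. The cause of these changes was not tested. Single results were combined with each alternative for the 6 codons and for 10 of the 15 Arg pairs. Of these combinations, 262 kept direction and side of the threshold, 77 lost a call, 10 gained one and 11 reversed. The ratios hold no read numbers, so the rarest codons cannot be given a counting error, although CGG and CGC occur least often.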
